A study of Mus musculus with 2 samples.

Results

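Platelet-derived growth factors (PDGFs) are secreted dimers that bind 2 receptor tyrosine kinases on the surface of neighboring cells. Transcripts of 5 genes of this system were followed in single cells of the embryonic mouse mandible, the ligands Pdgfa, Pdgfb and Pdgfc and the receptors Pdgfra and Pdgfrb. They were chosen by name, with earlier results of these data known, and make up 5 of the 31053 genes measured at embryonic day (E) 9.5 and 5 of the 27998 measured at E12.0. All 5 were found in both gene lists under their present symbols.

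Both libraries came from K14Cre;R26mT/mG embryos without any treatment, in which Cre under a Keratin 14 promoter switches a red membrane protein to GFP in cells of the epithelial lineage. The E9.5 library held unsorted cells of whole mandibular arches, epithelium and mesenchyme together, pooled from 8 embryos of 1 litter. For E12.0, arches of 6 pooled embryos were treated with Dispase II, the epithelium was peeled off and GFP+ cells were sorted. Each stage is thus 1 library made with 10x Genomics 3′ chemistry, with no replicate, so no test between samples could be made and the intervals given below cover counting error only.

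The unit of measurement is the UMI, a molecular barcode that marks 1 captured transcript, and levels are given as UMIs of a gene per 1000000 UMIs of a group of cells (CPM). Cells with 200 to 5500 genes and at most 10% mitochondrial UMIs were kept, which left 12744 of 14293 barcodes at E9.5 with a median of 13460.5 UMIs and 11355 of 11663 at E12.0 with a median of 6349. Cells were grouped by the UMIs they held of tissue-specific genes. A cell was in the Epcam gate with at least 1 UMI of Epcam, an epithelial adhesion molecule. The Twist1+Prrx1 gate needed at least 2 UMIs of these mesenchymal transcription factors together, the Cdh5 gate 1 UMI of the endothelial VE-cadherin gene and the Sox10 gate 1 UMI of this neural crest transcription factor. In all, 44 kept barcodes occurred in both libraries, 0.345% of the E9.5 cells and 0.387% of those at E12.0.

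Pdgfa, Pdgfb and Pdgfc encode the A, B and C chains of the ligands. A and C chain dimers act mainly through Pdgfra and B chain dimers act through both receptors, which then signal through phosphatidylinositol 3-kinase, Ras and phospholipase C. In many embryonic organs PDGF ligands are made by the epithelium or endothelium while the receptors are carried by the mesenchyme and by mural cells around vessels, and in the head Pdgfra is needed in neural crest cells for a normal face.

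The bases that precede the transcription start are shown for the ligands of the epithelium and for Pdgfra, which were among the genes at least 2-fold apart between the gates. They were read 5′ to 3′ on the strand of the gene from the RefSeq promoter table (build GRCm38.p6), end before the GENCODE M21 transcript starts that fall in the table's window, and have each CG dinucleotide in capitals. For Pdgfa the stretch is chr5:138995038-138995194 on the minus strand, for Pdgfc chr3:81036166-81036415 on the plus strand and for Pdgfra chr5:75152001-75152250 on the plus strand. The stretch of Pdgfa lies inside the span of longer annotated Pdgfa transcripts, outside their exons, and overlaps an exon of the antisense gene 6330403L08Rik.
Pdgfa: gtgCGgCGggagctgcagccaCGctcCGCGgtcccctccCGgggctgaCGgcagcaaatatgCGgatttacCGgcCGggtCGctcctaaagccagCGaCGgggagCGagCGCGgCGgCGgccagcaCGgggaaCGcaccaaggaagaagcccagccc
Pdgfc: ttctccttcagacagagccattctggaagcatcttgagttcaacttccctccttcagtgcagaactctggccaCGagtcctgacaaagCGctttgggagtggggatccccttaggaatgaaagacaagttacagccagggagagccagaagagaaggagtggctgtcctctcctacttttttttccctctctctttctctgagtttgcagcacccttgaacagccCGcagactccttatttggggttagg
Pdgfra: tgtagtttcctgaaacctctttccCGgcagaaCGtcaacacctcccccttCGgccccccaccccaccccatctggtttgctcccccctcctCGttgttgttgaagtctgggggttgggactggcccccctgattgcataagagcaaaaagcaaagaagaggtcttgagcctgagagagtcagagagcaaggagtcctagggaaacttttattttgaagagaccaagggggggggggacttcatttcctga

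The Pdgfa stretch held 20 CG dinucleotides in 157 bases, 12.7 per 100 bases, a density that 4.58% of the 32851 promoters in the table reach over their 250 upstream bases. With 3 CG dinucleotides in 250 bases the Pdgfc stretch lay below the median promoter, which has 6, and 71.0% of promoters hold as many. The Pdgfra stretch held 4. None of these stretches contains the GC box GGGCGG on either strand, which 32.7% of all promoters do. The same holds for the TATA box TATAAA, present in 12.4%, and for the motif CCAAT, present in 33.8%. Each motif was counted on its own, whether or not it overlapped another. The shares of all promoters are over 250 upstream bases. For Pdgfa the 93 bases nearest the RefSeq start were left out, so its stretch is shorter than the windows behind these shares. Motifs in those 93 bases were not counted. The letters describe the printed stretches alone.

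In GENCODE M21 on GRCm38, Pdgfa spans chr5:138976014-138997370 on the minus strand and its 5′ part overlaps 6330403L08Rik, which starts at 138995056 on the plus strand. The annotated 3′ ends of this pair, from which the reads come, lie apart at 138976014 and 139000577. The antisense transcript was counted at 3.43 CPM in cells of the Epcam gate only and at 0.259 CPM in cells of the Twist1+Prrx1 gate only at E9.5. Pdgfc spans chr3:81036416-81214040 on the plus strand and Pdgfb chr15:79995874-80014977 on the minus strand.

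The gates overlapped at E9.5. Of 4816 cells in the Epcam gate, 1391 were also in the Twist1+Prrx1 gate of 7220 cells, and 3144 cells met more than 1 gate in all. Cells in both the Epcam and Twist1+Prrx1 gates had a median of 17701 UMIs, against 11804 in the 3297 cells of the Epcam gate only and 14469 in the 4211 cells of the Twist1+Prrx1 gate only. Scrublet, which scores cells against simulated mixtures, called 14.5% of them doublets, against 0.516% and 1.28% of cells that met 1 gate. Free RNA from lysed cells and mixed cells can both put a UMI of Epcam or Twist1 in a cell, and their part in the values was not tested. Levels are therefore given for whole gates and for cells that met that gate and no other.

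The Epcam, Twist1+Prrx1 and Cdh5 gates were rich in the markers of their tissues, and the Sox10 gate was set apart little by the sum of its own. The 8 epithelial markers (Cdh1, Krt8, Krt18, Cldn6, Cldn7, Perp, Esrp1 and Grhl2) summed to 1695 CPM in cells of the Epcam gate only and 101 CPM in those of the Twist1+Prrx1 gate only. The 8 mesenchymal markers summed to 98.4 and 621 CPM in the same order, and the 8 endothelial markers to 2643 CPM in cells of the Cdh5 gate only. The 6 neural crest and glial markers summed to 245 CPM in the Sox10 gate and 204 CPM in the Twist1+Prrx1 gate. This sum is not specific, as it was 247 CPM in cells of the Cdh5 gate only, where 1 gene gave 240.2 CPM. Of the 1950 cells of the Sox10 gate, 1818 were also in the Twist1+Prrx1 gate. The 53 that met the Sox10 gate alone had a median of 3825 UMIs, 137 CPM of the neural crest and glial markers and 24786 CPM of red blood cell genes, and their levels are not compared. At E12.0 the Epcam gate held 9536 of 11355 cells, the Twist1+Prrx1 gate 1 cell and the Cdh5 gate none, so the later library informs on the epithelium alone.

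Pdgfa was an epithelial transcript at E9.5. Its level was 403 CPM in the Epcam gate (26751 UMIs, 95% interval 398 to 408) and 56.0 CPM in the Twist1+Prrx1 gate (54.6 to 57.4), a 7.19-fold difference. In the remaining gates it measured 83.3 CPM (Cdh5) and 48.9 CPM (Sox10). Much of this lay in cells that also met the Epcam gate. In the Cdh5 gate 102 such cells held 405 of 637 Pdgfa UMIs, and in the Sox10 gate 399 such cells held 1168 of 1643. Cdh5-only cells had 45.4 CPM (140 UMIs). With cells of a single gate the contrast of the Epcam and Twist1+Prrx1 gates widened to 546 against 24.5 CPM, 22.3-fold. Of all Pdgfa UMIs, 71.0% lay in the Epcam-only cells, which carried 23.9% of all UMIs.

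Detection followed the level. At least 1 Pdgfa UMI was counted in 90.5% of Epcam-only cells. After each cell was thinned to 4000 UMIs the shares in Epcam-only and Twist1+Prrx1-only cells were 78.9% and 7.66%. The residual 24.5 CPM in Twist1+Prrx1-only cells was 4.49% (4.25% to 4.74%) of the Epcam-only level. The 8 epithelial markers ranged from 2.43% to 8.41% in the same cells, and only Krt18 (6.51%) and Krt8 (8.41%) lay above Pdgfa. Of the 1418 Pdgfa UMIs in Twist1+Prrx1-only cells, 365 lay in the 205 muscle core cells described below.

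Pdgfc, which is activated by proteolysis after secretion, had the same direction. It measured 11.7 CPM (775 UMIs, interval 10.9 to 12.5) in the Epcam gate and 2.44 CPM (2.16 to 2.75) in the Twist1+Prrx1 gate, 4.78-fold apart. In cells that met 1 gate the levels were 15.7 and 2.11 CPM, 7.42-fold apart, with a UMI in 16.0% and 2.61% of cells. Its Twist1+Prrx1-only level was 13.5% of the Epcam-only level, above all 8 epithelial markers. This level was uneven. Of the 122 Pdgfc UMIs in Twist1+Prrx1-only cells, 30 lay in the 205 muscle core cells and 39 in 777 cells with Hand2, both described below. The other 3229 cells had 1.25 CPM.

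Among 14230 genes with at least 50 UMIs over both gates, 10.5% were at least 2-fold higher in the Epcam gate and found in 1% or more of its cells, and Pdgfa and Pdgfc were 2 of them. Between cells that met 1 gate, 15.4% of 13222 genes were. Pdgfa stood in the upper 1.33% of these ratios and Pdgfc in the upper 4.30%.

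Pdgfb, the ligand that endothelium uses to recruit mural cells, was rare and followed the Cdh5 gate. Only 172 UMIs were counted in the 12744 kept cells at E9.5. Its level was 15.7 CPM (120 UMIs, interval 13.0 to 18.8) in the 500 cells of the Cdh5 gate and 0.328 CPM (52 UMIs) in the 12244 other cells, a 47.8-fold difference (34.6-fold for Cdh5-only cells over all others, and 28.7-fold for the whole gate when each cell had equal weight), while 8.04% of 14174 genes were at least 2-fold higher in the Cdh5 gate. Only 47 genes had a larger ratio.

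In the 231 Cdh5-only cells Pdgfb reached 22.1 CPM with a UMI in 24.2% of cells. In Epcam-only cells it was 0.580 CPM and in Twist1+Prrx1-only cells 0.190 CPM. Of 139 cells with a Pdgfb UMI, 93 were in the Cdh5 gate. Among the other 46, 14 held at least 3 UMIs of the endothelial marker list and 1 held at least 3 UMIs of the macrophage and platelet list, which summed to 105 CPM over these 46 cells. Over the same cells the epithelial markers summed to 1638 CPM, the endothelial to 561 CPM and the mural to 456 CPM. The pooled epithelial sum was near the Epcam-only level, and the mural sum was above the 84.0 CPM of Epcam-only cells. These sums pool unlike cells and do not describe each of them. Epcam-only cells held 23 Pdgfb UMIs, Twist1+Prrx1-only cells 11 and cells of no gate 11. Only 2 cells outside the gate had more than 1 Pdgfb UMI, and 1 of these had 5.

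**Figure D1:**
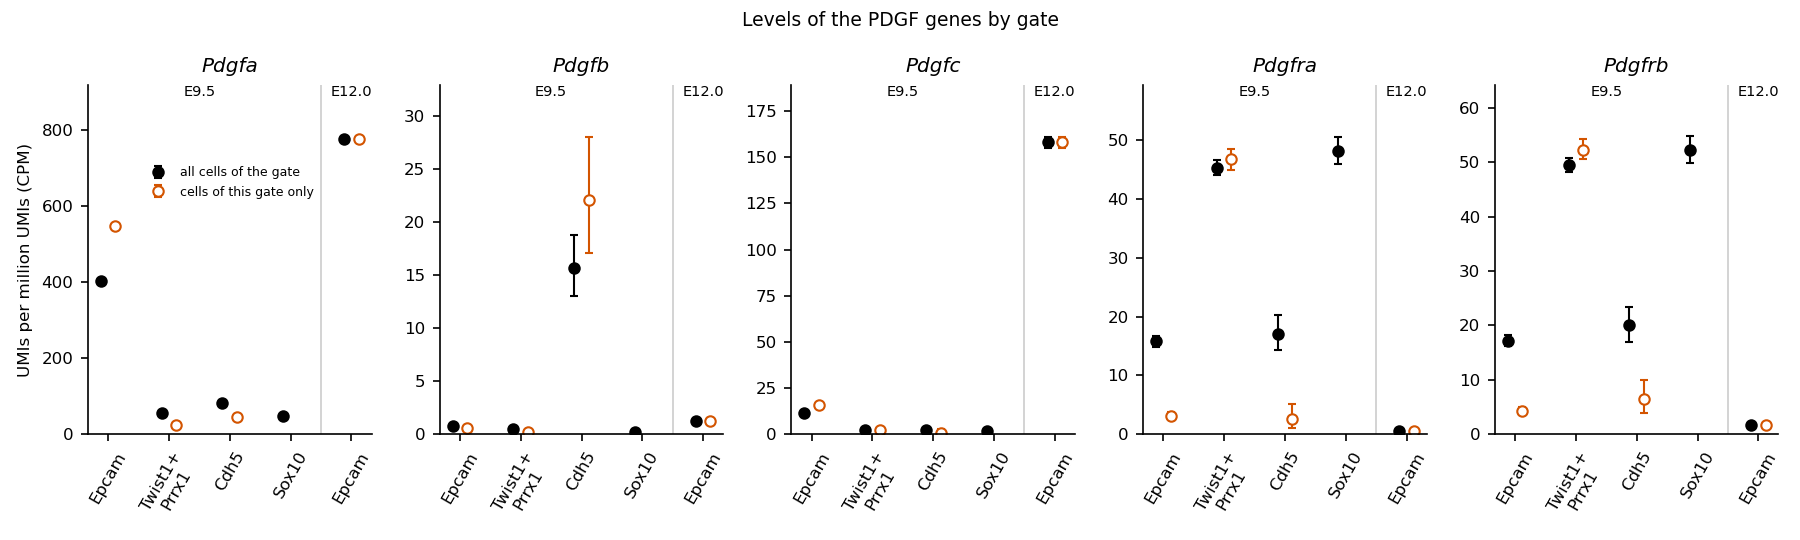
UMIs per 1000000 UMIs (CPM) of each PDGF gene in 4 gates at E9.5 and in the Epcam gate at E12.0, filled for all cells of a gate and open for cells of that gate only, with 95% Poisson intervals (hidden where smaller than the symbol). Cells of the Sox10 gate only are not drawn. Pdgfa and Pdgfc are high in the Epcam gate, Pdgfb in the Cdh5 gate and both receptors in the Twist1+Prrx1 and Sox10 gates, and the open symbols lie further apart than the filled ones between the Epcam and Twist1+Prrx1 gates for Pdgfa, Pdgfc, Pdgfra and Pdgfrb.

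The receptors were mesenchymal. Pdgfra, the receptor for A and C chains, lies on chromosome 5 (75152292 to 75198215, plus strand). It measured 45.2 CPM (5001 UMIs, interval 44.0 to 46.5) in the Twist1+Prrx1 gate, 48.1 CPM in the Sox10 gate, 17.1 CPM in the Cdh5 gate and 15.8 CPM (14.8 to 16.7) in the Epcam gate. The intervals of the Cdh5 gate (14.3 to 20.3) and the Epcam gate overlapped, and those of the Twist1+Prrx1 and Sox10 gates (45.8 to 50.5) did too. These latter gates share most Sox10 cells.

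Most of the Pdgfra signal in the Epcam gate came from cells that were also in the Twist1+Prrx1 gate. These double-gate cells had 36.8 CPM and held 917 of the 1047 UMIs in the gate. Epcam-only cells had 3.20 CPM, 14.6-fold below the 46.7 CPM of Twist1+Prrx1-only cells, where the whole gates differed 2.87-fold. A Pdgfra UMI was seen in 3.67% of Epcam-only cells and in 40.6% of Twist1+Prrx1-only cells.

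Pdgfrb, the B chain receptor of mesenchymal and mural cells, spans 61045150 to 61085061 on the plus strand of chromosome 18. Its levels ran close to this pattern, at 49.5 CPM (5476 UMIs, interval 48.2 to 50.8) in the Twist1+Prrx1 gate, 52.2 CPM in the Sox10 gate, 20.0 CPM in the Cdh5 gate and 17.2 CPM in the Epcam gate. Without overlapping cells the difference was 12.2-fold, from 52.3 CPM in Twist1+Prrx1-only to 4.29 CPM in Epcam-only cells.

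Among all 14230 genes, 2.07% were at least 2-fold higher in the Twist1+Prrx1 gate, and 5.26% of 13222 genes between cells of 1 gate. Both receptors were among them, at 2.87-fold and 2.88-fold for the whole gates, so that a 3-fold threshold would end both calls there. Between cells of 1 gate, they stood with Pdgfra in the lowest 0.363% of Epcam-only to Twist1+Prrx1-only ratios and Pdgfrb in the lowest 0.514%. The level that remained in Epcam-only cells was 6.86% (5.70% to 8.20%) of the mesenchymal level for Pdgfra and 8.19% (6.97% to 9.56%) for Pdgfrb. The 8 mesenchymal markers retained between 6.88% (Snai1) and 45.0% (Msx1) in those same cells, and the intervals of both receptors overlapped that of Snai1 (5.88% to 8.02%), the lowest.

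Cdh5-only cells had little receptor RNA, with 2.60 CPM of Pdgfra (8 UMIs) and 6.49 CPM of Pdgfrb (20 UMIs, interval 3.96 to 10.0). The 205 cells in both the Cdh5 and Twist1+Prrx1 gates had 33.1 and 35.6 CPM. Mural marker genes summed to 69.1 CPM in Cdh5-only cells, 84.0 CPM in Epcam-only cells and 115 CPM in Twist1+Prrx1-only cells. The list includes Acta2 and Tagln, which the paper gives as markers of periderm cells.

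The gate genes themselves are counted with few UMIs, so cells at E9.5 were also binned by them. Pdgfa was 37.3 CPM in the 7928 cells without an Epcam UMI, 88.9 CPM with 1, 350.4 CPM with 2, and 529.7 and 530.1 CPM with 3 to 5 and 6 or more. These bins mix epithelial with mesenchymal cells. Among cells with no Twist1 or Prrx1 UMI, Pdgfa was 145 CPM without Epcam, 391 CPM with 1 UMI and 553 CPM with 2, so that cells with 1 lay nearer to cells with 2 there and nearer to cells without Epcam in the mixed bins. Pdgfc was 3.42 CPM with 1 Epcam UMI and 12.3 CPM with 2 in the mixed bins, and 12.7 CPM (8.34 to 18.4) and 23.1 CPM (16.6 to 31.3) without Twist1 or Prrx1, where the intervals overlap.

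Both receptors were highest in cells with the most Twist1 and Prrx1 UMIs. Pdgfra measured 3.66, 3.53, 7.31, 23.4 and 53.0 CPM with 0, 1, 2 to 3, 4 to 7 and 8 or more of these UMIs, and Pdgfrb 5.09, 7.66, 14.1, 38.2 and 55.7 CPM. Without Epcam UMIs the first and last bins were 5.13 and 53.9 CPM for Pdgfra. Pdgfa went the other way, from 456 to 24.0 CPM over all cells and from 145 to 14.6 CPM without Epcam UMIs. The bins also differ in depth. Without Epcam UMIs the 1332 cells of the first bin had a median of 3644 UMIs, and those of the last bin 16891. In the bin of 2 to 3 UMIs, the first inside the gate, both receptors were closer to cells outside it.

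**Figure D2:**
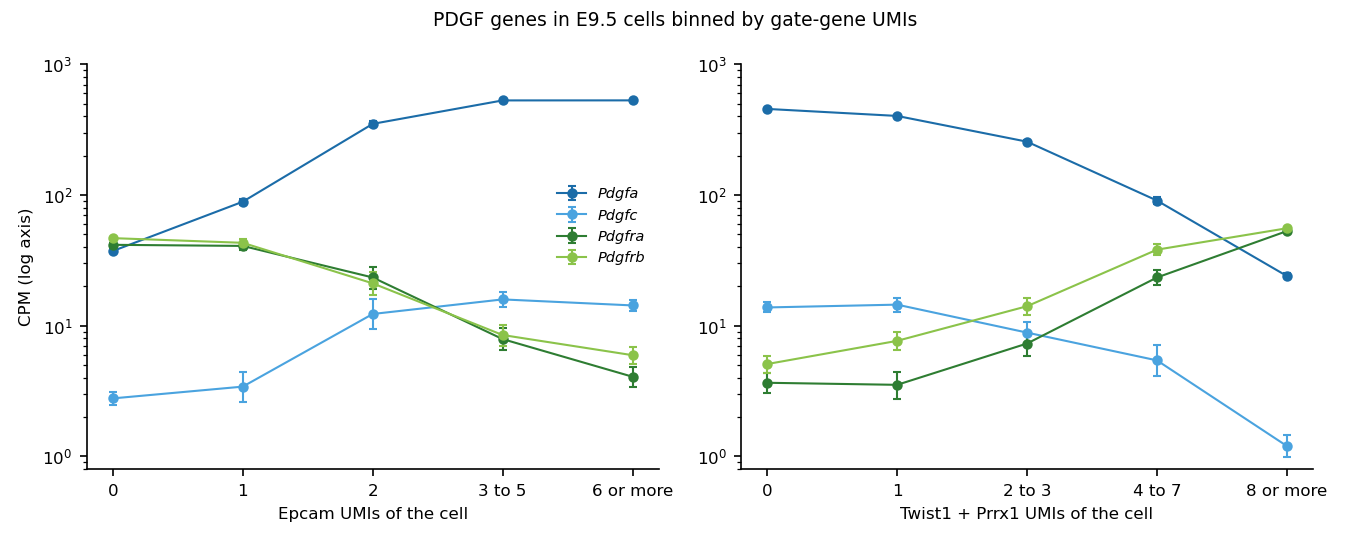
CPM (log axis) of Pdgfa, Pdgfc, Pdgfra and Pdgfrb in E9.5 cells grouped by their UMIs of Epcam (left) or of Twist1 and Prrx1 together (right), with 95% Poisson intervals. Ligand levels climb between 1 and 3 Epcam UMIs and level off, and receptor levels climb through the last Twist1 and Prrx1 bin.

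Within the E9.5 epithelium Pdgfa was widespread. Epcam-only cells were divided in turn by Pax1 and Foxa2, transcription factors of the pharyngeal endoderm, then by Sfn, Vgll2 and Tfap2b, and a rest. Pdgfa spanned 413 CPM in Pax1 cells to 678 CPM in Sfn cells, a 1.64-fold range, with a UMI in 78.5% to 98.8% of cells. Pdgfc spanned 9.95 to 21.2 CPM with a UMI in 12.6% to 22.1% of cells over the same groups, again lowest in Pax1 cells and highest in Sfn cells. Endodermal cells (Pax1 or Foxa2, 459 cells) had 459 CPM of Pdgfa against 562 CPM in the other 2838 cells, a log2 difference of -0.29 (-0.35 to -0.23), and for Pdgfc the difference was -0.65 (-1.04 to -0.28). The pooled Pdgfa difference does not describe the Foxa2 cells. They had 535 CPM of Pdgfa (506 to 565), not below Vgll2 cells (507 CPM) or the rest (499.7 CPM). Their Pdgfc was 11.6 CPM (7.65 to 16.9), near the 12.1 CPM of Vgll2 cells and below the 17.8 CPM of the rest. Receptor levels stayed between 1.72 and 5.82 CPM in every one of the 6 groups.

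The mesenchyme was less uniform. Cells of the Twist1+Prrx1 gate only with at least 2 UMIs of Tcf21, Msc and Myf5, transcription factors of the muscle core, numbered 205. Pdgfa measured 114 CPM (interval 103 to 127) in them and 19.3 CPM in the other 4006 cells, a log2 difference of 2.57. Only 1.09% of 11827 genes had a higher ratio. Pdgfc was also higher, at 9.41 CPM (30 UMIs, 6.35 to 13.4) against 1.68 CPM.

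Receptors in the muscle core cells parted from each other. Pdgfra was 7.84 CPM (5.07 to 11.6), against 48.9 CPM in the other cells of the gate, a log2 difference of -2.64 (-3.27 to -2.08). Pdgfrb was 29.5 CPM (23.8 to 36.1) against 53.7 CPM, a difference of -0.86 (-1.18 to -0.57), and these intervals do not meet. No Pdgfb UMI was found there, which allows up to 0.941 CPM. The epithelial marker list summed to 71.2 CPM in these cells, between the 60.5 CPM of Twist1+Prrx1-only cells with neither marker set and the 249 CPM of those with Hand2.

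Because some muscle core cells fell outside the Twist1+Prrx1 gate, the same marker rule was applied to all cells outside the Epcam, Cdh5 and Sox10 gates, a choice made after the data were seen. Among the 526 cells found, 321 of them outside every gate, Pdgfa was 130.4 CPM with a UMI in 72.1%, Pdgfc 12.7 CPM, Pdgfra 4.76 CPM and Pdgfrb 22.4 CPM. In the 321 cells these were 143, 15.4, 2.28 and 16.7 CPM. The 1487 cells outside every gate with fewer marker UMIs had 159.9, 10.3, 7.59 and 10.2 CPM, at a median of 2834 UMIs. High Pdgfa beside low Pdgfra was thus not particular to muscle core cells among cells of no gate, although Pdgfra was lower in the 321. The epithelial cadherin gene Cdh1 was at 1.54 CPM in the 526 cells (11 UMIs), while it was 60.7 CPM in Epcam-only cells. Cldn6 was at 2.80 CPM (20 UMIs) against 141 CPM. Krt18 was at 33.9 CPM (242 UMIs, in 31.7% of the cells) against 734 CPM. The part of epithelial RNA in the Pdgfa level of these cells was not tested. Scrublet called 16 of the 526 doublets. With at least 4 marker UMIs, 219 cells remained, with 136 CPM of Pdgfa and 3.43 CPM of Pdgfra.

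Along the mesenchyme, the 777 cells with Hand2, a transcription factor of the distal arch, had 58.7 CPM of Pdgfra (54.5 to 63.2), above the 46.1 CPM (44.1 to 48.2) of the 3229 cells with neither marker set. For Pdgfrb the order turned, with 46.9 CPM (43.2 to 51.0) in Hand2 cells and 55.6 CPM (53.4 to 57.9) in the rest. Pdgfc was 3.21 CPM (39 UMIs) and 1.25 CPM (53 UMIs), a log2 difference of 1.36 (0.73 to 1.99), with epithelial markers at 249 CPM in the Hand2 cells and 60.5 CPM in the rest, whose part in this difference was not tested. Of the 249 CPM, 1 epithelial marker gave 129.6 CPM and the lowest gave 0.987 CPM, so the sum does not stand for the whole list. The 9 mural markers, used for vessel wall cells, summed to 266 CPM in Hand2 cells and 65.3 CPM in the rest. In the Hand2 cells 1 gene gave 116 CPM and 2 genes were at 0. The sum is not specific to vessel walls, as the list holds Acta2 and Tagln. Pdgfa, at 17.7 and 19.7 CPM, did not differ beyond counting error.

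Cells that met the Sox10 and Twist1+Prrx1 gates, but no other, lay near the Twist1+Prrx1-only cells in both receptors. These 1458 cells had 51.3 CPM of Pdgfra, a log2 difference of 0.14 (0.04 to 0.23) to Twist1+Prrx1-only cells, and 55.0 CPM of Pdgfrb, a difference of 0.07 (-0.02 to 0.16). Pdgfa, at 15.7 CPM, was lower by -0.64 (-0.80 to -0.48). The Twist1+Prrx1-only cells of this comparison include the 205 muscle core cells, with 114 CPM of Pdgfa and 7.84 CPM of Pdgfra. Pdgfa was 17.7 CPM in the Hand2 cells and 19.7 CPM in the rest. Both values are nearer to 15.7 CPM than the 24.5 CPM of all Twist1+Prrx1-only cells.

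**Figure D3:**
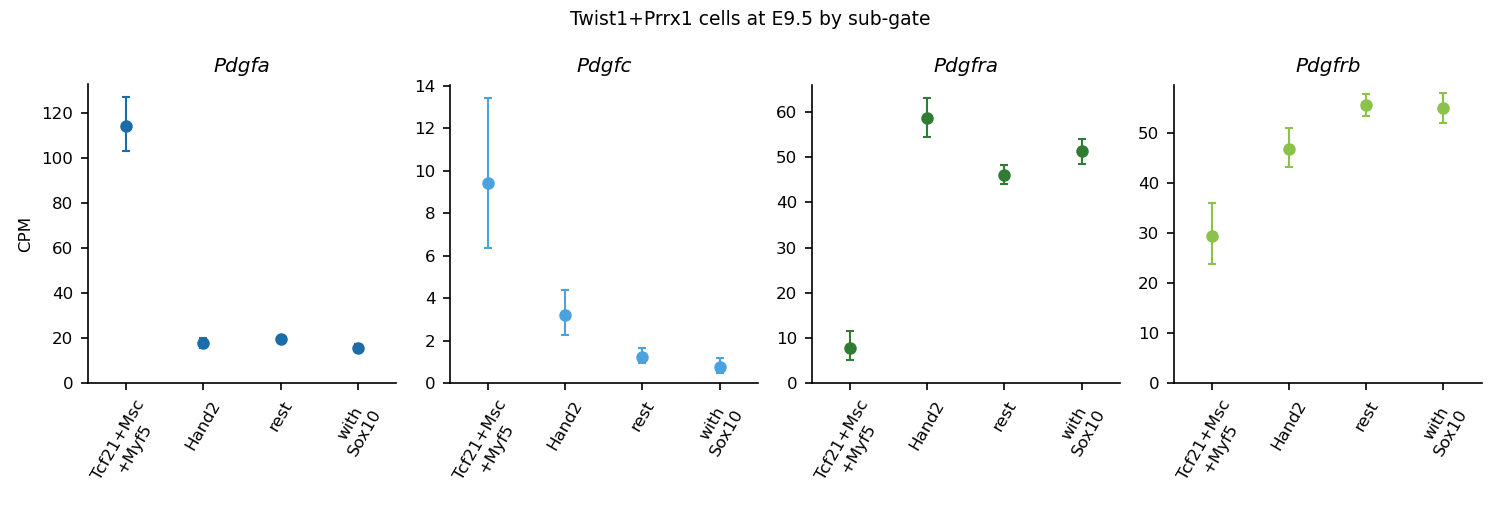
CPM of Pdgfa, Pdgfc, Pdgfra and Pdgfrb at E9.5 in cells of the Twist1+Prrx1 gate only with Tcf21, Msc and Myf5 UMIs, with Hand2 or with neither, and in cells that also met the Sox10 gate, with 95% Poisson intervals. The first group has the highest ligand and lowest receptor levels, and the Hand2 and rest groups change order between the receptors.

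Receptor transcripts were counted together in cells at a common depth of 4000 UMIs. In 3748 Twist1+Prrx1-only cells, 15.9% had a Pdgfra UMI, 17.3% a Pdgfrb UMI and 3.15% both, 1.15 times the product of the shares (interval 0.953 to 1.37). The interval includes 1, so joint detection beyond the product was not detectable in these cells at this depth. Over the whole Twist1+Prrx1 gate the ratio was 1.16 (1.01 to 1.33), and at full depth it was 1.35 (1.28 to 1.42) in Twist1+Prrx1-only cells. Cells differ in depth there, and the part of depth in this ratio was not tested. A UMI of at least 1 receptor was seen in 30.0% of thinned cells and in 60.4% of cells at full depth. Pdgfa and Pdgfra were seen together in 33 of 1385 thinned cells that met both the Epcam and Twist1+Prrx1 gates, 0.566 times the product (0.391 to 0.791). For this pair the ratio was 0.834 (0.591 to 1.14) in Twist1+Prrx1-only cells and 0.867 (0.567 to 1.27) in Epcam-only cells, and both intervals include 1. No thinned cell of the Cdh5 gate held both Pdgfb and Pdgfrb, 0 of 482, which allows a share of up to 0.622%, and at full depth 10 of 500 cells did.

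At E12.0 the epithelium held more Pdgfc. Its level was 158 CPM (10731 UMIs, interval 155 to 161) in the Epcam gate, against 11.7 CPM at E9.5, a 13.5-fold difference, and 10.1-fold between cells of the Epcam gate only (158 and 15.7 CPM). A Pdgfc UMI was counted in 60.1% of Epcam-only cells at E12.0 and in 16.0% at E9.5, although the E9.5 cells were sequenced more deeply, and at 4000 UMIs per cell in 43.7% and 6.24%. Among 14075 genes of both gene lists, 20.4% were at least 2-fold higher at E12.0 and 2.56% had a larger ratio than Pdgfc. Stage, sorting, dissociation and the version of the gene annotation differ together between the libraries and cannot be told apart.

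Pdgfa was already high at E9.5 and differed less between the stages. It measured 776 CPM (769 to 782) in the Epcam gate at E12.0 and 403 CPM at E9.5, 1.93-fold, and 1.42-fold when cells of other gates were left out. Pdgfa UMIs were in 95.3% of cells of the Epcam gate at E12.0, and 91.2% after thinning. A larger ratio was found for 24.8% of genes. Pdgfb was 1.24 CPM (84 UMIs, 0.986 to 1.53) against 0.783 CPM (52 UMIs), a log2 difference of 0.66 (0.14 to 1.19). At E9.5, 26 of these UMIs lay in the 102 cells that were also in the Cdh5 gate. Between cells of the Epcam gate only, Pdgfb was 1.24 CPM (83 UMIs) against 0.580 CPM (23 UMIs, 0.368 to 0.870).

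Receptor RNA was scarce in the sorted epithelium. In 9448 Epcam-only cells 38 UMIs of Pdgfra (0.566 CPM) and 117 of Pdgfrb (1.74 CPM) were counted, against 3.20 and 4.29 CPM in Epcam-only cells at E9.5. The 1818 E12.0 cells outside all gates were close to the Epcam gate in their ligands, with 757 CPM of Pdgfa and 166 CPM of Pdgfc, and had 1 UMI of Pdgfra. These cells had a median of 5558 UMIs and 685 CPM of the epithelial markers, against 811 CPM in the Epcam gate.

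The E12.0 epithelium was also divided by regional genes, of which 6 groups are given here. Pdgfc was lowest in Pkp1+Grhl3 cells, at 87.4 CPM (76.4 to 99.5), and highest in Cxcl14+Tfap2b cells of the anterior epithelium, at 193 CPM (187 to 198). The paper places Pkp1 and Grhl3 in a cluster of periderm, the flat outer layer, together with the suprabasal cells below it. Shh cells had 110.3 CPM (93.7 to 129) and Foxa1+Foxa2 cells 151 CPM (138 to 165). Dmrt2+Col14a1+Rtl3 cells, marked by genes of the posterior epithelium, had 178 CPM.

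Pdgfa was likewise lowest in Pkp1+Grhl3 cells, at 443 CPM (417 to 469), but highest in the posterior group, at 919.7 CPM (900.2 to 939). The anterior cells, highest for Pdgfc, had 774 CPM of Pdgfa (763 to 786), below the posterior group. The range over the groups was 2.08-fold for Pdgfa and 2.21-fold for Pdgfc. In each of these E12.0 groups Pdgfc exceeded its highest E9.5 group. For Pdgfa the Pkp1+Grhl3 cells fell among the E9.5 groups, and the other E12.0 groups lay above the highest, Sfn cells with 678 CPM (663 to 694). Of these, Shh cells had 695 CPM (652 to 739.7), an interval that met that of Sfn cells.

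Pdgfb and Pdgfrb each stood out in 1 of these groups on few UMIs. Pdgfb was 2.19 CPM (50 UMIs, 1.63 to 2.89) in Cxcl14+Tfap2b cells and 1.24 CPM in all Epcam-only cells, which include them. Pdgfrb was 9.84 CPM (14 UMIs, 5.38 to 16.5) in 174 Shh cells and 1.57 CPM in the other 9274 cells. The mesenchymal marker list summed to 206 CPM in the Shh cells, of which 1 gene gave 201 CPM while 6 of the 8 were at 0, and to 154 CPM in all Epcam-only cells. The neuronal list summed to 63.2 CPM, of which 1 gene gave 61.8 CPM while 2 of the 4 were at 0, and to 4.44 CPM in all Epcam-only cells. All E12.0 cells had passed the GFP+ sort of peeled epithelium, and the part of these genes in the Pdgfrb value was not tested. No Pdgfra UMI was found in the Shh cells, which allows up to 2.11 CPM.

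**Figure D4:**
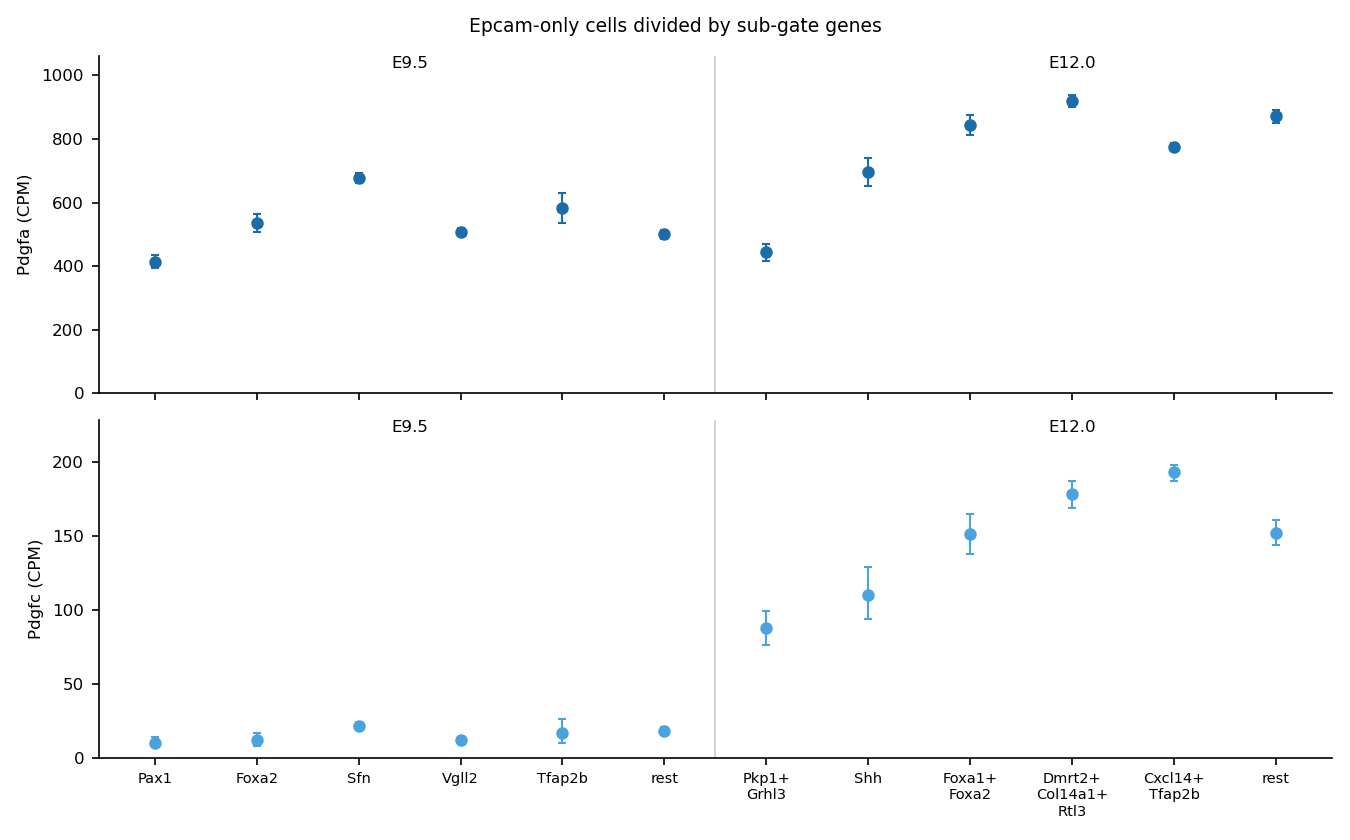
CPM of Pdgfa (top) and Pdgfc (bottom) in Epcam-only cells divided by sub-gate genes, 6 groups at each stage, with 95% Poisson intervals. Every E12.0 group lies above all E9.5 groups for Pdgfc, whereas the Pkp1+Grhl3 group at E12.0 falls among the E9.5 groups for Pdgfa.

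The wider pathway was followed in 5 lists of related genes, by the ratio of Epcam-only over Twist1+Prrx1-only cells at E9.5 and against the shares of 15.4% and 5.26% of all genes that were 2-fold higher in either group. Of the 6 other PDGF and VEGF family ligands, 1 was higher in Epcam-only cells and 2 in Twist1+Prrx1-only cells. The former was Pdgfd, a further PDGF ligand, at 2.77 and 0.951 CPM. The latter were the lymphatic growth factors Vegfc, at 3.81 and 12.4 CPM, and Vegfd, at 0.605 and 1.83 CPM. With whole gates Pdgfd passed and neither of the others did.

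Of 10 genes of related receptors and their ligands, 7 passed the minimum of 50 UMIs. Of these, 4 were higher in Epcam-only cells (Kit, Csf1, Flt1 and Pdgfrl) and 1 in Twist1+Prrx1-only cells (Kdr). With whole gates 1 of the 7 was, Kit in the Epcam gate. Kit, the stem cell factor receptor, was 28.0 CPM and 2.08 CPM, a log2 difference of 3.75 (3.48 to 4.04). The VEGF receptor gene Kdr went the other way, with 2.87 and 11.4 CPM. Kit starts 377 kb beyond the end of Pdgfra on chromosome 5 and Kdr lies another 276 kb beyond Kit, so that these receptor genes sit in a row, Kit higher in Epcam-only cells and its neighbors higher in Twist1+Prrx1-only cells. Kdr is also an endothelial marker, and that list summed to 48.2 and 71.7 CPM in these groups.

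Genes that process or bind the ligands leaned to the epithelium. Of 14, 13 passed the minimum, 6 were higher in Epcam-only cells and none in Twist1+Prrx1-only cells. The median log2 ratio of the list was 0.96, against 0.16 over all genes. The membrane protease St14 had the largest difference, with 30.8 and 0.917 CPM. Plat, the tissue plasminogen activator that can cleave the C chain, was 4.44 and 1.82 CPM, the proprotein convertase Furin 13.0 and 5.69 CPM and Sparc, a matrix protein that binds PDGF B chains, 162 and 55.8 CPM. With whole gates 3 of the 13 passed, St14, Plat and Sparc.

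Downstream genes are set beside the shares of all genes that were 2-fold higher, 15.4% in Epcam-only and 5.26% in Twist1+Prrx1-only cells. With 1 gene per list and direction, the lists are too short to be told from the latter share. Of 21 adaptors and enzymes at the receptor, 1 was higher in either group, Pik3r1, a regulatory subunit of phosphatidylinositol 3-kinase, in Epcam-only cells (27.1 and 12.6 CPM) and the phosphatase Ptprj in Twist1+Prrx1-only cells (10.6 and 4.41 CPM). The median log2 ratio was 0.09, against 0.16 over all genes. Of 11 response genes, Spry1 was higher in Epcam-only cells (32.1 and 14.9 CPM) and Spry4 in Twist1+Prrx1-only cells (13.5 and 5.42 CPM), both inhibitors of receptor tyrosine kinase signaling, and Myc, at 12.5 and 25.0 CPM, lay just short of a 2-fold ratio. With whole gates none of the adaptors or response genes reached 2-fold.

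**Figure D5:**
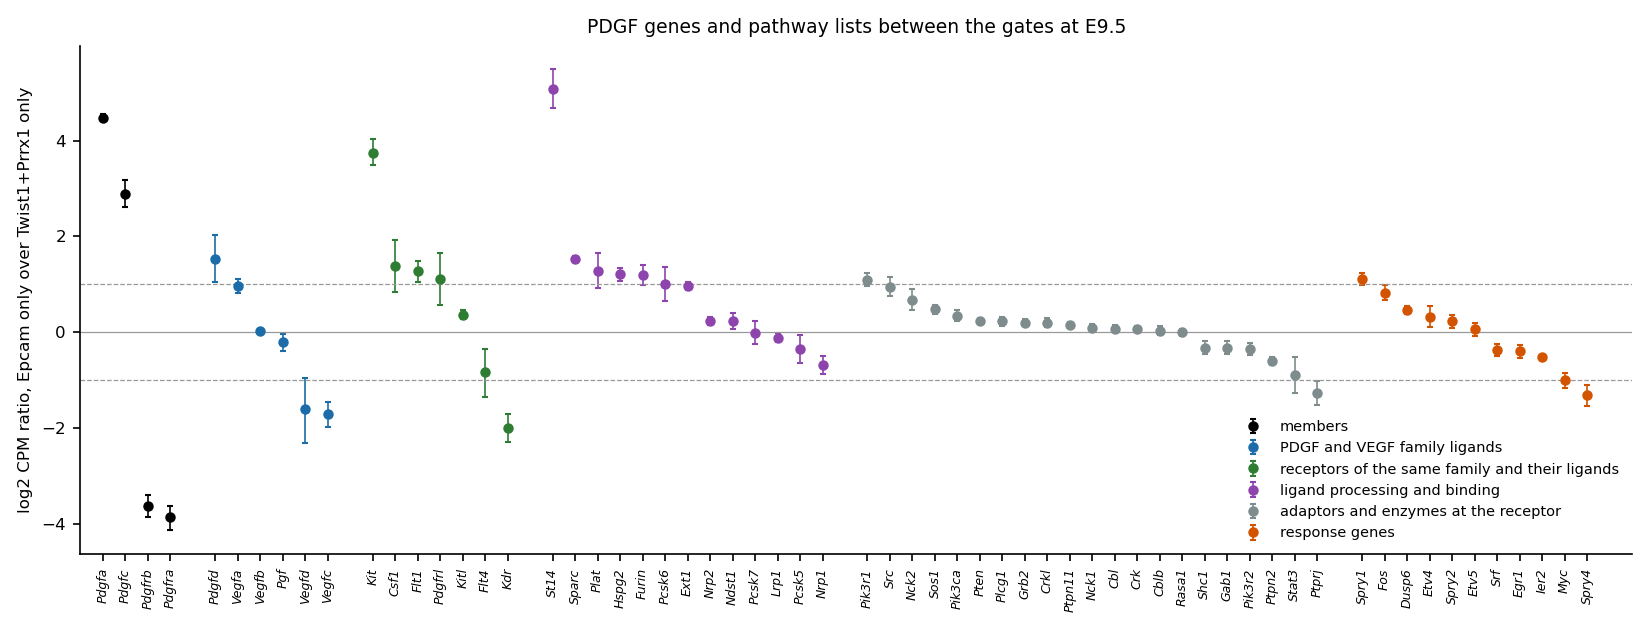
log2 CPM ratio of Epcam-only over Twist1+Prrx1-only cells at E9.5 for the PDGF genes and 5 lists of related genes with at least 50 UMIs, with 95% intervals and dashed lines at 2-fold. Adaptors and response genes lie between the dashed lines except Pik3r1, Ptprj, Spry1 and Spry4, while Pdgfa, Pdgfc, Kit and St14 lie high and both PDGF receptors lie low. Pdgfb, with too few UMIs, is not drawn.

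Genes with the profile most like each member were sought over 13 groups of E9.5 cells that share no cell (the 6 epithelial and 3 mesenchymal groups above, the Cdh5-only and the 53 Sox10-only cells, cells of more than 1 gate and cells of none), by Pearson's r of log2(CPM + 1) among 7660 genes with at least 20 CPM in 1 of the groups. This is a description of 13 points that share 1 library. Nearest to Pdgfa were Nkx2-3 (0.971), Grip1 (0.962), Igfbp5 (0.961), Retreg1 (0.960) and Ago1 (0.955). For Pdgfc they were Cd24a (0.966), Mirg (0.960), Arid3b (0.960), Dctn3 (0.957) and Nav2 (0.956). Pdgfb lay beside Gimap1 (0.982), Gja4 (0.977), a gap junction gene of arteries, Pnp (0.973), Ptprb (0.972), an endothelial phosphatase, and Gm36503 (0.971). Pdgfra was most like Dlx6os1 (0.975), Nkd2 (0.966), Dlx1 (0.954), a transcription factor of the arches, Dnajc1 (0.948) and Gsto1 (0.947). Pdgfrb was most like Sulf2 (0.976), a heparan sulfate sulfatase, Bcat1 (0.965), Psmg1 (0.965), Exosc9 (0.962) and Tcp1 (0.951). A high r does not mean a large difference between groups. Tcp1 ranged only from 556 to 695 CPM, Exosc9 from 49.5 to 67.2 CPM and Dctn3 from 109 to 160.2 CPM. Pdgfb was 22.1 CPM in Cdh5-only cells and at most 1.08 CPM in the other groups, so its r values rest on 1 group. Among the members, Pdgfa and Pdgfc had r = 0.883 and the receptors r = 0.902.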

How the data were processed

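Mouse mandibular cells were measured by 10x Genomics single cell RNA sequencing, 1 library for E12.0 and 1 for E9.5. The authors deposited UMI counts per gene and cell barcode, made with Cell Ranger 2.0.0 on GRCm38 (mm10) per the labels, without normalization, while the file headers name other Cell Ranger versions. Counting error depends on depth, 77936364 UMIs in kept cells at E12.0 and 166191431 at E9.5.

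Kept cells (200 to 5500 genes, at most 10% mitochondrial UMIs) were gated by UMIs of the genes named. CPM are summed counts with exact Poisson intervals, shares have exact binomial (Clopper-Pearson) intervals and CPM ratios exact conditional binomial intervals, all at 95%. For joint detection, the binomial interval of the joint share was divided by the product of the shares. That product was taken as fixed, so its own error is left out. UMI totals include all genes. Where a count was 0, the level or share it is said to allow is that of 3 UMIs or 3 cells. This is lower than the upper end of the exact interval, which for Pdgfb in the muscle core cells is 1.16 CPM. Cells were thinned to 4000 UMIs, leaving out 1715 shallower cells at E9.5 and 916 at E12.0. A gene was called higher at a 2-fold CPM ratio with a UMI in at least 1% of cells of the higher group and at least 50 UMIs over both. With 1 library per stage no test was made. Doublets were called with Scrublet in scanpy 1.11.5 at score thresholds of 0.278 at E9.5 and 0.180 at E12.0, and kept unless stated. SciPy 1.17.1, NumPy 2.4.6 and pandas 2.3.3 under Python 3.11.15 were used, and the ratio step was tested on simulated data.

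The members and gene lists were chosen with earlier results of these data known. Text names the members and, from each list, up to 4 genes per direction with the largest ratio between the Epcam and Twist1+Prrx1 gates, and the most alike genes. The lists held 6, 10, 14, 21 and 11 genes. Gene positions are GENCODE M21. One sub-gate at E12.0 is not reported here. Promoter bases of Pdgfb and Pdgfrb and proteins are not used here. Alternatives covered gates, weights, thinning, totals, cell filters, doublets and cells split by Xist or Y-linked UMIs.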

Additional observations from a re-analysis of the deposited data

How the results depend on the processing

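Across the 7 ratios of a PDGF gene between gates or stages, no alternative turned a direction. Of their alternative values 39 stayed within the counting interval and 42 moved, and all values here are log2 ratios unless stated.

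For the contrast of the Epcam and Twist1+Prrx1 gates at E9.5, Pdgfa (2.85) became 4.48 with exclusive gates, 4.10 with stricter gates, 3.01 with equal weight per cell, 3.02 in thinned cells, 2.06 without a cell filter, 3.11 without called doublets and 2.75 in cells with an Xist UMI and no Y-linked UMI. Pdgfc (2.26) became 2.89 with exclusive gates, 3.18 with stricter gates and 1.71 without a cell filter. In the direction of the Twist1+Prrx1 gate, Pdgfra (1.52) became 3.86, 3.25, 1.76, 1.18 and 1.63 with exclusive gates, stricter gates, thinned cells, no cell filter and no called doublets. Pdgfrb (1.53) became 3.61, 3.0, 1.65, 1.22 and 1.62 under these, 1.72 with equal weight and 1.38 in cells with a Y-linked UMI. Pdgfb in the Cdh5 gate (5.58) became 4.84 with equal weight.

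Between the stages, Pdgfa (0.95) became 0.51 with exclusive gates, 0.55 with stricter gates, 0.85 with equal weight and also 0.85 in thinned cells, 0.92 with totals free of mitochondrial, ribosomal protein and hemoglobin genes, 1.04 without a cell filter, 0.89 without called doublets and 0.98 in cells with a Y-linked UMI. Pdgfc (3.76) became 3.34, 3.41, 3.58, 3.52 and 3.88 with exclusive gates, stricter gates, equal weight, thinned cells and no cell filter. Exclusive gates without called doublets, chosen after seeing the data, gave 4.53 for Pdgfa, 2.93 for Pdgfc, 3.89 for Pdgfra and 3.6 for Pdgfrb at E9.5, and 0.50 for Pdgfa and 3.33 for Pdgfc between the stages. The cause of these shifts was not tested.

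Genes at least 2-fold higher numbered 1488 in the Epcam gate and 901 at 3-fold, and 295 in the Twist1+Prrx1 gate, 695 with exclusive gates and 44 at 3-fold, where Pdgfra and Pdgfrb are no longer among them. No paired analysis was possible because each stage is a single library. Depth limits Pdgfb most, with 172 UMIs at E9.5.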
